A study of Sus scrofa with 9 samples.

Results

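The miRNA miR-431 was followed through 2 products, miR-431-5p and miR-431-3p, which are the 2 of 526 arms in the deposited tables that carry this name in the table of conserved miRNAs. Small RNA came from longissimus dorsi, the long back muscle, of female Jinhua pigs, an unmodified domestic breed. The stages were the fetus 90 days into gestation (E90), birth (day 0), and the ages of 30 days (day 30), 180 days (day 180) and 7 years. E90, day 0 and day 30 had 1 library each, while day 180 and 7 years had 3 each, so 9 libraries stand for the 15 pigs stated in the study's design. No source used here tells how pigs were shared among libraries, so a p-value reflects the spread from library to library alone. This spread may be technical, and in a group of several ages it also holds differences between ages. Levels are given as RPM: the copies of an arm for every 1000000 high-quality reads its library had. In whole muscle, fewer cells of a type and less RNA per cell cannot be told apart.

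A precursor hairpin is cut by Dicer into a duplex, from which usually one strand, the guide, stays in an Argonaute protein while the other, the passenger, is lost. The arm named 5p lies before the loop of the hairpin and 3p after it. In mammals mir-431 belongs to the imprinted DLK1-DIO3 cluster, expressed from the maternal chromosome, and lies within the transcript antisense to the retrotransposon-derived gene RTL1. In mouse muscle, miR-431 is known for acting on the transcripts of Pax7, a transcription factor of satellite cells, and of Smad4, a mediator of TGF-beta signalling.

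The sequences below are those the deposited table lists for both arms, with the seed (bases 2 to 8, the part that pairs with targets) in capitals, followed by the precursor with both arms in capitals. The precursor lies at chr7:132097559-132097659 on the plus strand of Sscrofa10, with the 5p arm at bases 20 to 39 and the 3p arm at bases 63 to 84. No annotation of that assembly was used here, so exon or intron is not stated.
miR-431-5p: tGTCTTGCaggccgtcatgc
miR-431-3p: cAGGTCGTcttgcagggcttct
mir-431 precursor: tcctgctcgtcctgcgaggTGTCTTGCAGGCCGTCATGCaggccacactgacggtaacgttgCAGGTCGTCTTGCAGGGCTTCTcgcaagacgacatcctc

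The 5p arm is 20 nt long and the 3p arm 22 nt. No other arm of the 495 left after merging duplicate entries had either seed. Both arms hold a common run of 10 bases, at positions 2 to 11 of the 5p arm and 7 to 16 of the 3p arm, shown in capitals next. The seed of miR-431-5p is thus also found inside miR-431-3p, where its first bases overlap the end of that arm's own seed.
miR-431-5p: tGTCTTGCAGGccgtcatgc
miR-431-3p: caggtcGTCTTGCAGGgcttct
In the fold of lowest predicted energy (RNAfold, −45.5 kcal/mol), 15 bases of the 5p arm paired with the 3p arm. The table gives a longer precursor of 145 bases in the row of the 3p arm, which opens with the same 101 bases. The nearest other conserved precursor on the chromosome, mir-665, lay 4587 bp before it on the same strand.

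The libraries differed in depth and in how much of it the tables hold. High-quality reads ran from 3476614 at day 30 to 12259667 in day 180 replicate 1. Copies in both tables made up 2.70% (E90), 1.91% (day 0) and 1.04% (day 30) of these reads, then between 0.257% and 0.322% at day 180 and between 0.147% and 0.196% at 7 years. A cell without a value was counted as 0 copies, although it may stand for up to 2. A floor of 3 copies corresponds to between 0.245 and 0.863 RPM, depending on the library. Of the fixed muscle markers, 2 of 6 families were measured, with summed levels of 0.992 RPM at E90, 34.0 at day 0, 14.4 at day 30, 0 to 0.767 at day 180 and 0 to 1.07 at 7 years, so the tables check the labelled tissue only weakly. The blood marker miR-223-3p, from 1 of 4 families, had 2.58, 5.59 and 4.03 RPM at E90, day 0 and day 30, 2.22 to 7.57 at day 180 and 0.959 to 3.85 at 7 years. Epithelial markers, 5 arms of 3 of 5 families, summed to 12.7, 3.80 and 10.1 RPM at E90, day 0 and day 30, 0.958 to 1.96 at day 180 and 0.641 to 1.07 at 7 years. Neural and endothelial markers had no measured member. The part of other cell types in the results was not tested.

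miR-431-5p was among the 3 most abundant of the 100 conserved arms at every age, and its RPM fell with age. Its level was 4527 RPM at E90 (22826 copies), 3931 RPM at day 0 (17572 copies) and 3006 RPM at day 30 (10451 copies). The day 180 libraries held 724, 548 and 592 RPM (8870, 5723 and 5344 copies). At 7 years the listed levels were 180, 185 and 110 RPM (1122, 687 and 1037 copies). Every library stood below all libraries of each earlier stage, with no overlap between day 180 and 7 years. Its rank among the 100 conserved arms was 3 at E90 and 2 at day 0, at day 30 and in each day 180 library. In each library of 7 years it was 3. This rank is within the tables, which hold a small part of the reads, and is not one among all miRNAs of the muscle.

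In RPM, most of the fall of miR-431-5p came after the first month. Its level at day 0 was 0.868 of that at E90 (exact 95% counting interval 0.851 to 0.886), and at day 30 it was 0.765 of that at day 0 (0.746 to 0.783). These steps are between single libraries and were not tested, and counting intervals leave out differences between animals. The mean at day 180, 621 ± 91.1 RPM (SD, n = 3), was 4.84-fold lower than at day 30. At 7 years the mean was 158 ± 41.5 RPM (SD, n = 3), 3.93-fold lower than at day 180 and 28.6-fold lower than at E90.

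**Figure D1:**
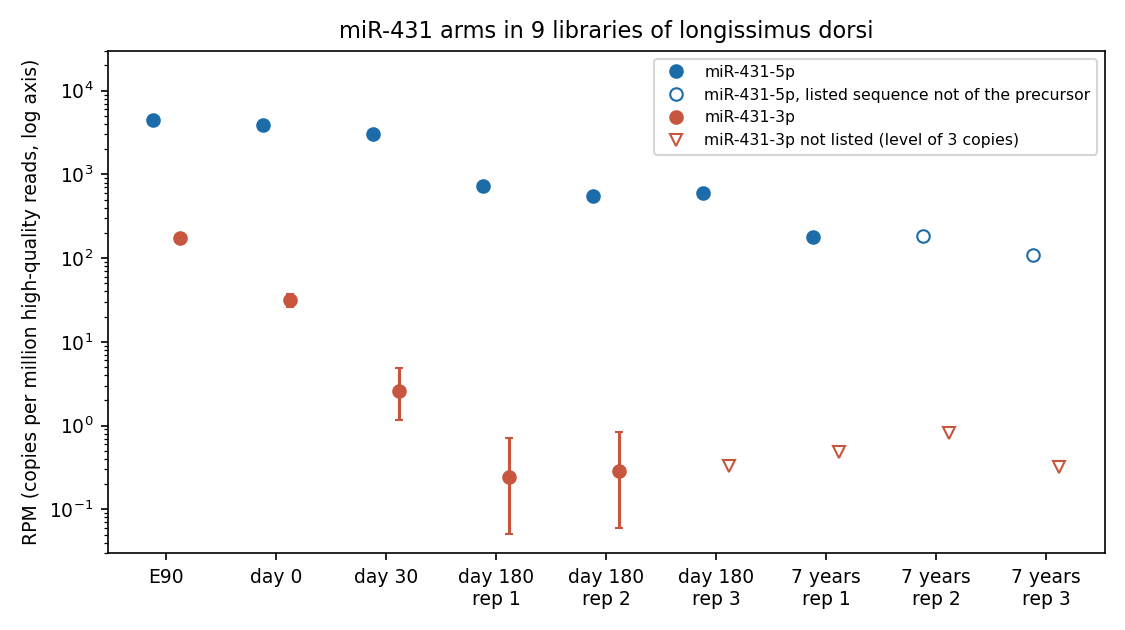
Level of both miR-431 arms in each of the 9 libraries, in RPM on a log axis, with exact 95% counting intervals. miR-431-5p goes from 4527 RPM at E90 to between 110 and 185 RPM at 7 years, and miR-431-3p from 176 RPM at E90 to the level of 3 copies or less in the last 4 libraries, where open triangles mark that it was not listed. Open circles mark the 2 libraries of 7 years whose listed miR-431-5p sequence is not of the precursor.

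The sequence column puts a limit on the values of 7 years. In 7 libraries the top sequence of miR-431-5p was the 20 nt one shown above, which matches the precursor in full. In 7 years replicates 2 and 3 the same column lists another, 23 nt long, with its bases 2 to 8 in capitals here.
listed in 7 years replicates 2 and 3: tCCCTGAGaccctaacttgtgaa
This run shares at most 4 consecutive bases with the mir-431 precursor and at most 8 with any precursor of either table, and no other cell lists it. As background, it opens with the letters known as mature miR-125b-5p in mammals, and no arm of either table is named miR-125. Whether the 687 and 1037 copies of these libraries count miR-431-5p, the other sequence or both cannot be told from the tables. The remaining library of 7 years, replicate 1, lists the precursor's own sequence, at 180 RPM. Over all conserved arms, 434 of 487 listed sequences (89.1%) matched their precursor exactly, and 5 shared fewer than 10 consecutive bases with it. Of these 5, the other 3 belonged to miR-677-3p and miR-1260b-5p and had 3 or 4 copies. The 3p arm had 1 sequence, the 22 nt one shown above, in each of the 5 libraries that listed it.

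miR-431-3p was a minor product in the fetus and went almost entirely from the tables after birth. It was listed with 889 copies (176 RPM) at E90, 140 copies (31.3 RPM) at day 0 and 9 copies (2.59 RPM) at day 30. Day 180 replicates 1 and 2 listed 3 copies each (0.245 and 0.287 RPM). Day 180 replicate 3 and all 3 libraries of 7 years listed none, where 3 copies would be 0.332 RPM and 0.320 to 0.806 RPM. The 3 libraries up to day 30 thus lie above the 6 later ones, which are all at or under 3 copies.

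The fall of miR-431-3p was steep from one library to the next. Its level at day 0 was 0.178 of that at E90 (exact 95% counting interval 0.148 to 0.213), and at day 30 it was 0.0826 of that at day 0 (0.0370 to 0.161). Over the pooled reads of day 180 the level was 932-fold lower than at E90 (exact 95% counting interval 427 to 2547) and 13.7-fold lower than at day 30 (4.35 to 46.7). With a floor of 3 copies per library, 7 years was at least 329-fold lower than E90, at least 58.5-fold lower than day 0 and at least 4.83-fold lower than day 30. Between 7 years and day 180 no fold can be given, since both lie at or under the floor.

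Since both arms come from one hairpin, their ratio within a library does not depend on library size. The 3p arm made up 3.75% of the copies of both arms at E90 (exact 95% interval 3.51 to 4.0) and 0.790% at day 0 (0.665 to 0.932). At day 30 the share was 0.0860% (0.0394 to 0.163). In day 180 replicates 1 and 2 it was 0.0338% (0.00697 to 0.0988) and 0.0524% (0.0108 to 0.153). The intervals of day 0 and day 30 each lie wholly below that of the stage before. Those of day 30 and of day 180 overlap. All these intervals cover counting error alone and leave out differences between animals. With 1 library each at E90, day 0 and day 30, the steps between them were not tested.

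In copies, 1 of the 3p arm stood against 25.7 of the 5p arm at E90, 126 at day 0 and 1161 at day 30. Where the 3p arm was not listed, the share that 3 copies would give is 0.0561% in day 180 replicate 3 and 0.267%, 0.437% and 0.289% in 7 years replicates 1, 2 and 3. At the ratio of day 30, the 19937 copies of miR-431-5p at day 180 would go with 17.2 copies of miR-431-3p, and 6 were listed. At the same ratio the 2846 copies at 7 years would go with 2.45 copies, under the floor, so a difference in arm balance at 7 years was not detectable at this depth. At the E90 ratio they would go with 111 copies, and none was listed. Of these 2846 copies, 687 and 1037 are of 7 years replicates 2 and 3, whose listed sequence is not of the precursor. The copies expected at 7 years may thus be too high, and the shares given for 3 copies in these 2 libraries too low.

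**Figure D2:**
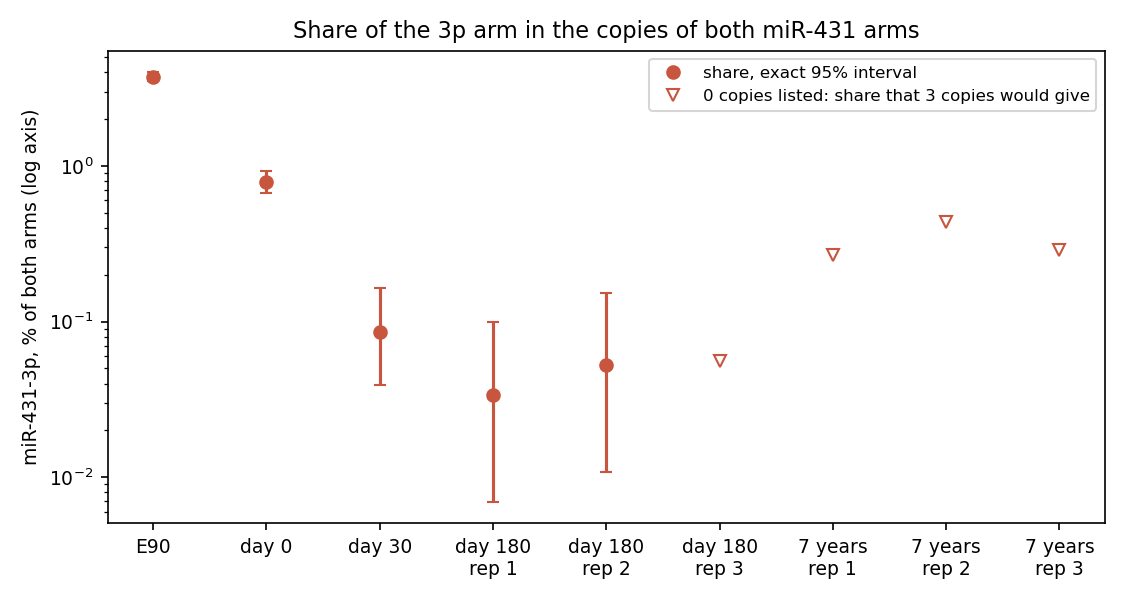
Share of miR-431-3p in the copies of both miR-431 arms, in percent on a log axis, per library with exact 95% intervals. The share is 3.75% at E90, 0.790% at day 0 and 0.0860% at day 30, and open triangles mark libraries without a listed copy, at the share that 3 copies would give.

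Over libraries, the mean share of the 3p arm was 0.0144% ± 0.0230 (SD, n = 6) from day 180 on and 1.54% ± 1.94 (SD, n = 3) up to day 30. The libraries of both sets do not overlap, and a two-sided exact permutation test of the difference in means gave p = 0.0119, which 84 splits cannot go below (adjusted p = 0.0476, over 4 share comparisons in all). This test takes libraries as exchangeable, although the early libraries are each of another age and the later ones come from a pair of ages. With empty cells set to 2 copies the sets overlapped (exact permutation p = 0.0476), and without the single E90 library the difference shrank to −0.424 percentage points, against −1.53 with it (exact permutation p = 0.0357 without it). Between 7 years and day 180 the mean shares were 0% and 0.0287% ± 0.0266 (SD, n = 3), with an exact permutation p = 0.4, where 0.1 is the smallest possible.

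Other hairpins of the tables did not all lose their minor arm. Of 30 conserved precursors with both arms, 14 had at least 20 copies of both together in every early library and in 3 or more later ones. Against the arm that was minor in the early libraries, the later libraries lay wholly below the early ones for 5 precursors (35.7%), wholly above for 5 (35.7%), and overlapped for 4. miR-431 was 1 of the first 5, beside miR-409, miR-655, miR-6529 and miR-716a. For miR-409 and miR-655 the later libraries could not have shown otherwise, since the early shares would give them 1.09 and 1.44 copies of the minor arm in all, under the floor of 3, which leaves 3 precursors with a drop that could be seen. For miR-431 the early share would give 456 copies, and 6 were listed. Its minor arm share fell at each step from E90 to day 0 and day 30, as it did for 3 of the 14, the other two being miR-539 and miR-716a. For miR-539-5p, of the same cluster, the mean share was 0.190% in the later and 11.6% in the early libraries. For miR-26b-3p, from outside the cluster, it was 0.437% in the later and 0.126% in the early libraries. These shares are descriptions, and differences between precursors were not tested.

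Differences in level were tested with edgeR's quasi-likelihood test with TMM factors, which compare an arm with the bulk of the tested arms, and p-values adjusted by Benjamini-Hochberg over all of them. For 7 years against day 180, miR-431-5p was lower, with a log2 fold change of −1.06 (SE 0.23, edgeR adjusted p = 0.0417). It was 1 of 6 arms called lower among 175 tested (3.43%), and none was called higher. An unadjusted p under 0.05 was found for 22 arms in either direction, and DESeq2's Wald test also called 6 lower and 0 higher. Of the 175 arms 44 passed the filter through earlier stages and had no copy at either age, so they could not be called, and the 6 calls are 4.58% of the other 131. The median log2 fold change was −0.13 over the 78 arms listed at both ages. Over all 175 it was −0.10 with TMM and −0.99 with high-quality reads alone, where miR-431-5p had −1.97 (edgeR adjusted p = 0.000679).

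The call ended in some fits with a single library left out and held in others, although the fold stayed negative. It held without day 180 replicate 2 (log2 fold change −1.17, edgeR adjusted p = 0.0275) and without 7 years replicate 3 (−0.83, edgeR adjusted p = 0.0302). Without day 180 replicate 1 the log2 fold change was −1.06 (edgeR adjusted p = 0.273), without day 180 replicate 3 −0.99 (0.207), without 7 years replicate 1 −1.09 (0.145) and without 7 years replicate 2 −1.28 (0.0535), over a range of adjusted p from 6.03e-05 to 0.278 for all alternatives tried. With both libraries of unmatched sequence left out it was −1.44 (edgeR adjusted p = 0.159), where the single library left at 7 years is assumed to vary like the day 180 libraries. miR-431-3p had 6 copies at day 180 and none at 7 years and was not called (edgeR adjusted p = 0.591).

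Libraries from day 180 on were then compared with those up to day 30, developing muscle. Each group pools several ages, so the spread within it includes differences between ages. Both arms were lower in the later libraries. miR-431-5p averaged 390 ± 261 RPM (SD, n = 6) in the later and 3821 ± 766 RPM (SD, n = 3) in the early libraries, with a log2 fold change of −1.61 (SE 0.45, edgeR adjusted p = 0.00991). miR-431-3p averaged 0.0887 ± 0.138 RPM (SD, n = 6) in the later and 70.1 ± 93.1 RPM (SD, n = 3) in the early libraries, with a log2 fold change of −7.42 (SE 1.28, edgeR adjusted p = 0.000962). That fitted value rests on 6 copies in the later libraries. Without the E90 library it was −5.32 (edgeR adjusted p = 0.0133). Of 91 arms tested 35 were called lower (38.5%) and 19 higher (20.9%), 59.3% in either direction, so a call was common in this comparison.

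The scale decides how far miR-431-5p stands out in it. The median of all 91 arms was −0.75 with TMM and −2.62 by high-quality reads alone, where miR-431-5p had −3.29 (edgeR adjusted p = 0.000975). With reads alone 48 arms were called lower and 11 higher. The call of miR-431-5p ended with a stricter filter on abundance (log2 fold change −0.39, edgeR adjusted p = 0.387) and with the conserved table alone (−0.20, edgeR adjusted p = 0.747). These settings test fewer arms and also shift the scale. Log2 fold changes of the arms shared with the main fit moved by a median of 1.26 and 1.36. The call of miR-431-3p did not end under any setting that tested it.

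The DLK1-DIO3 list is the 28 conserved arms of families known from this cluster. Other families of the cluster, such as miR-127 and miR-379, have no arm among the conserved ones, so the list is a part of it. Within the list, miR-431-5p had the highest level at day 180. At 7 years only miR-411c-5p stood above it, in each of the 3 libraries. Of the 28 arms, 20 were listed in no library of 7 years. Replicates 1, 2 and 3 of this age listed 7, 8 and 8 of the 28 list arms. Of all 100 conserved arms they listed 28, 28 and 37. Unlisted arms were thus common at this age among all conserved arms, not only in the list. For 7 years against day 180, 25 list arms passed the filter, 5 were called lower, none higher and 20 not. Among all 175 arms tested, 6 were called lower (3.43%). Of the 25, 7 had no copy at either age and 11 were listed at day 180 alone, so their fitted folds are 0 or set by the prior count. In RPM, with arms unlisted at 7 years held at the floor, the median log2 ratio of the 13 list arms for which a ratio can be given was −1.24, against −0.98 for all 105 arms with one and −1.97 for miR-431-5p. The other 4 list arms called lower, miR-412-5p, miR-409-3p, miR-411c-3p and miR-485-3p, were each listed in no library of 7 years. miR-409-3p, for one, had 27.7, 14.1 and 21.3 RPM at day 180.

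For later against early libraries, 18 list arms passed, of which 16 were lower, 1 higher and 1 not called. Among all 91 arms tested, 38.5% were lower and 20.9% higher. The median log2 fold change of the list arms was −5.35 with TMM, against −0.75 for all 91 and −1.61 for miR-431-5p. Arms passed the filter through the group in which they are high, so these counts describe the list and are no test of it. Of the Rtl1-antisense group, the part of the cluster that holds mir-431, only miR-665-3p was measured besides, at 0.595 RPM at E90 and 1.57 RPM at day 0, and listed in no other library.

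**Figure D3:**
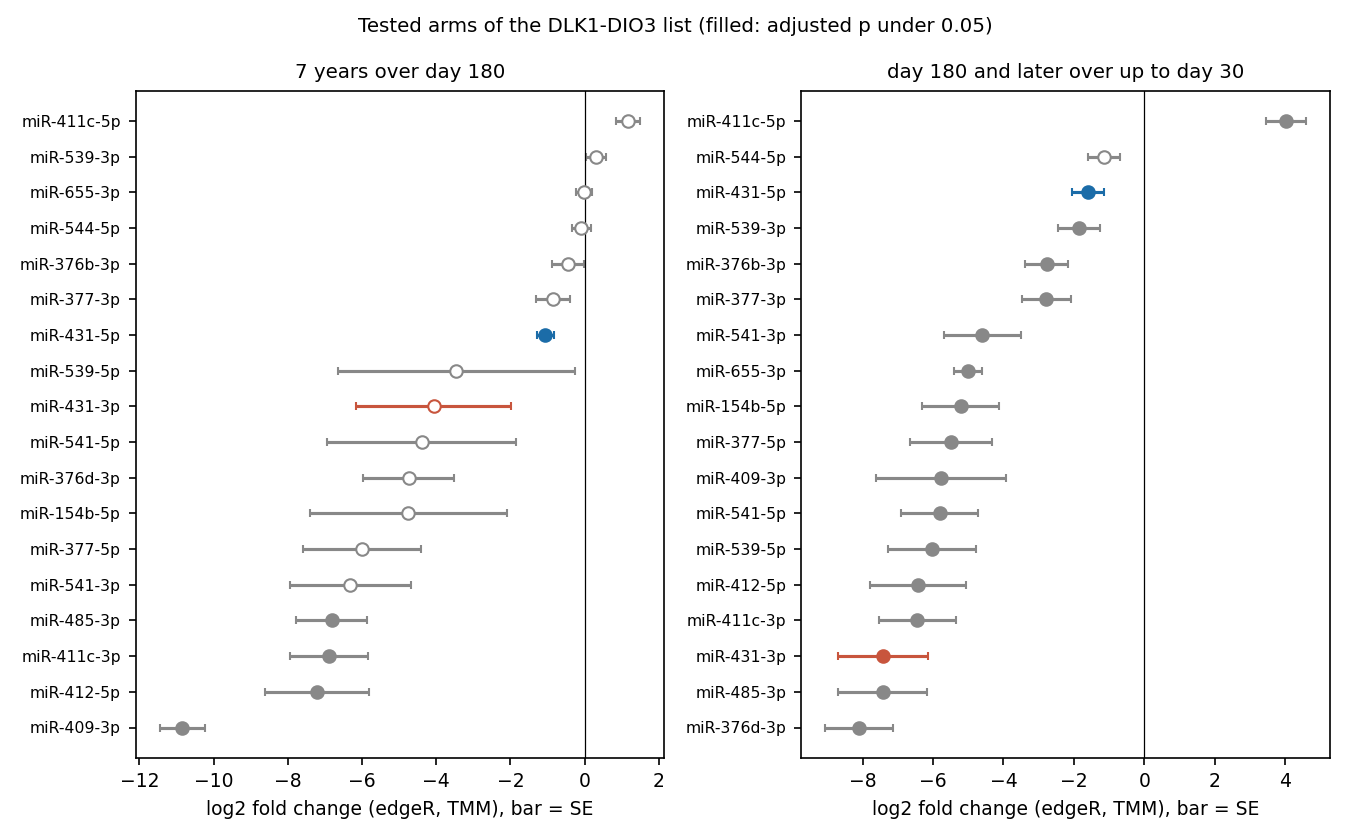
Log2 fold change with its SE for the tested arms of the DLK1-DIO3 list, 7 years over day 180 (left, without 7 arms listed at neither age) and day 180 and later over up to day 30 (right), with miR-431-5p in blue and miR-431-3p in red. miR-431-5p is filled as called in both panels, at −1.06 and −1.61, and miR-431-3p in the right panel alone, at −7.42; folds of arms with no copy at 7 years depend on the prior count.

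The share of miR-431-5p in the list's copies showed how it stood beside the measured arms of its cluster. It was 30.3% at E90, 50.7% at day 0 and 56.2% at day 30. At day 180 it was 57.9%, 52.0% and 51.8%, and at 7 years 20.9%, 24.5% and 25.1%. The libraries of 7 years thus lay below those of day 180, with means of 23.5% ± 2.27 and 53.9% ± 3.44 (SD, n = 3 each). In 7 years replicates 2 and 3 the listed sequence is not of the precursor. Whether their copies count miR-431-5p cannot be told. With both left out, the difference was −33.0 percentage points, against −30.4 with all libraries. With 3 libraries against 3, an exact permutation test (two-sided) cannot go below 0.1, and gave p = 0.1 (adjusted p = 0.2). For later against early libraries the means were 38.7% ± 16.9 (SD, n = 6) and 45.8% ± 13.7 (SD, n = 3), an exact permutation p = 0.571.

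One other arm sets much of this share. miR-411c-5p took 60.3% to 70.2% of the list's copies at 7 years, 26.3% to 37.1% at day 180 and 0.341% to 2.23% in the early libraries. Leaving it out, a choice made after seeing its copies, miR-431-5p held 63.3% to 78.6% of the remaining list at 7 years and 78.5% to 82.4% at day 180 (exact permutation p = 0.2). Against the early libraries, at 30.4% to 57.5%, the later ones were then higher without overlap. The difference was 29.1 percentage points, the opposite direction to the full list. Leaving out an arm with a large part of the later copies raises the share there, so this difference is a description and no test. The remaining list itself, without both arms, had 76.6, 50.3 and 64.1 RPM at 7 years, 198, 134 and 126 RPM at day 180, 2221 RPM at day 30, 3725 RPM at day 0 and 10362 RPM at E90.

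**Figure D4:**
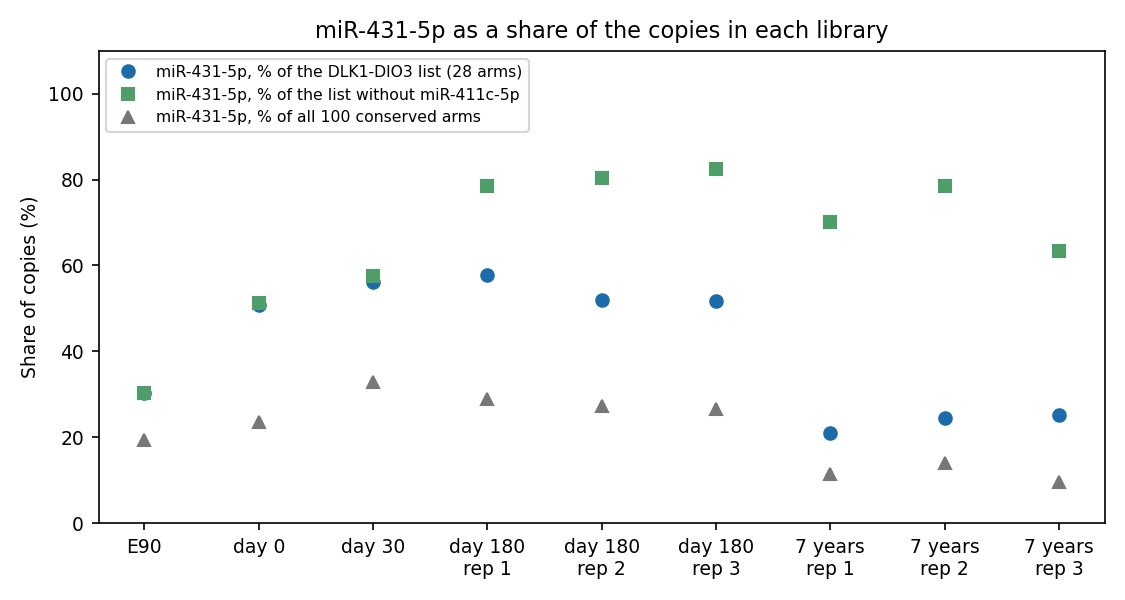
Copies of miR-431-5p in each library as a percentage of the DLK1-DIO3 list, of the list without miR-411c-5p and of all 100 conserved arms. Of the full list the share is 51.8% to 57.9% at day 180 and 20.9% to 25.1% at 7 years, while without miR-411c-5p it stays above 63% in all 6 later libraries and is 57.5% or less in the early ones.

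Arms with the most similar pattern were ranked by Pearson's r of log2(RPM + 0.5) over the 9 libraries, among conserved arms with at least 10 copies in 5 or more libraries. All measured copies together fell with age as a share of reads, and the median r was 0.83 over 31 arms ranked against miR-431-5p. The 5 arms most like it were miR-409-3p (r = 0.97, Spearman's rho 0.98), miR-188-5p (r = 0.97, rho 0.97), miR-33a-5p (r = 0.97, rho 0.88), miR-660-5p (r = 0.96, rho 1) and miR-411c-3p (r = 0.96, rho 0.97). Of these, miR-409-3p and miR-411c-3p belong to the DLK1-DIO3 list. For miR-431-3p the 3 closest were miR-485-3p (r = 0.97, rho 0.85), miR-412-5p (r = 0.97, rho 0.89) and miR-376b-3p (r = 0.96, rho 0.88), all of the list. The next, miR-454-3p, is from outside it (r = 0.95, rho 0.94). The median r was 0.77 over 32 arms. As miR-431-3p was at or under 3 copies in all 6 later libraries, these r are set mainly by the 3 early ones. The partner arm of miR-431-3p, miR-431-5p, ranked 13th with r = 0.84.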

How the data were processed

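Small RNA of longissimus dorsi was read, per the labels, on Illumina's Genome Analyzer II. The deposited values are counts, whole numbers of copies of each arm per library, with the high-quality reads of each library and the assembly Sscrofa10, per the file headers. The aligner, the miRNA caller and their filters were not given in the sources used here. Both tables (100 conserved and 426 putative new arms) were joined, and putative new entries with equal sequence and values merged, leaving 495 arms. Empty cells were counted as 0.

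Levels were divided by high-quality reads. Tests used edgeR 4.0.16 in R 4.3.3 (TMM, filterByExpr with a minimum count of 10 and total of 15, robust quasi-likelihood, adjusted p under 0.05), with a term per stage for 7 years against day 180 and 2 groups for later against early libraries. SEs are the absolute log2 fold change over the root of F. DESeq2 1.42.0 was an alternative. Intervals are exact (95%) and, like floors of 3 copies, cover counting error only. Shares were compared by exact permutation of the absolute difference in means, enumerated in full and checked against scipy 1.17.1. Precursors were folded with RNAfold 2.7.2. Scripts ran on Python 3.11.15, pandas 2.3.3, numpy 2.4.6 and matplotlib 3.10.9, and were tested on simulated data.

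The members, the lists, the named miRNAs' rule (both arms, the 5 and 3 most similar arms, the Rtl1-antisense arms and list arms called at 7 years) and the alternatives were chosen with earlier results of these data known. The list without miR-411c-5p was added after seeing the data.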

Additional observations from a re-analysis of the deposited data

How the results depend on the processing

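The log2 fold change of miR-431-5p for 7 years against day 180 was negative under all 16 alternatives, and the call was lost under 8 of them. It was −1.09 with DESeq2 size factors (edgeR adjusted p = 0.093), −1.0 with only the 6 libraries of both ages (0.0826), −1.44 without 7 years replicates 2 and 3 (0.159), and from −1.28 to −0.83 with single libraries left out (0.0275 to 0.273). The call ended in 4 of these 6. miR-431-3p turned to 0.62 with empty cells set to 2 copies, and its share of both arms to a difference of 0.179 percentage points, since 2 copies are a larger share beside the fewer miR-431-5p copies of 7 years. For later against early libraries, miR-431-5p was −1.10 with a term per stage, −0.39 with a stricter filter (minimum count 50) and −0.20 with conserved arms alone. The sign was kept in all 18 alternatives. Its share of the list turned to a difference of 29.1 points without miR-411c-5p. miR-431-3p did not pass the filter in fits of the 6 libraries and with the stricter filter for later against early.

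Calls over all arms for 7 years against day 180 numbered 6, against 14 with reads alone, 20 with the stricter filter, 17 with conserved arms alone, 2 with the 6 libraries and 2 to 8 with single libraries left out. They numbered 2 without day 180 replicate 1 or 3 or 7 years replicate 2. Without 7 years replicates 2 and 3 edgeR called 0 of 169, with 27 at an unadjusted p under 0.05, and DESeq2 was not run there. For later against early libraries 54 calls compare with 26 under the stricter filter, 19 with conserved arms alone and 44 to 61 with single libraries left out. With conserved arms alone the cause of the lower count was not tested.

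Replicate numbers showed no sign of pairing the samples. Deviations of equal-numbered libraries of day 180 and 7 years correlated at −0.01, −0.15 and −0.15 over 175 arms, and those of unequal numbers at −0.08 to 0.19. Deviations from a mean of 3 libraries are tied to each other, so these values cannot settle whether a pairing exists. With the replicate number as a block in the 6 libraries, miR-431-5p was −1.04 (edgeR adjusted p = 0.278) and 1 arm was called. A paired exact sign-flip test gave p = 0.25 for its share of the list, the smallest possible, and 0.5 for the 3p share. No paired analysis was possible for later against early libraries because each early stage has a single library.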

Other observations

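Both miR-431 arms were rich in G and C, with 60.0% in the 5p and 59.1% in the 3p arm, against a median of 43.5% over the conserved arms, of which 18 exceeded the 5p arm. Of the 31 arms ranked by similarity to miR-431-5p, miR-411c-5p came last (r = −0.86), with 265 to 603 RPM at 7 years and 51.0 to 119 RPM up to day 30.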
